A study of Homo sapiens with 21 samples.

Results

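The 10 genes SOX2, SOX4, SOX5, SOX6, SOX8, SOX9, SOX10, SOX11, SOX12 and SOX13 were followed as a family of transcription factors, taken by name from the 57820 genes of an RNA-seq count table. The libraries came from A673, a cell line from an Ewing sarcoma that carries the fusion EWS/FLI and is known to keep growing when it is depleted. There were 21 libraries in 7 groups of 3, numbered as replicate sets 1, 2 and 3. Cells of the iLuc group carried an shRNA against luciferase and the empty vector, and kept the endogenous fusion. Every other group carried an shRNA against the 3′ untranslated part of the fusion transcript. Depleted cells with the empty vector (iEF) were the baseline, and the remaining groups were depleted cells rescued with a cDNA. WT-EF was the full-length fusion. Δ22, the negative control, lacked the EWS domain. DAF was a full-length form with alanine in place of the tyrosines in the repeats at the N-terminal end of EWS. In mut9 a large inner part of EWS was deleted, and DAF-mut9 carried tyrosine substitutions within that shortened form. Infection with the shRNA was on day 1, and the cDNA, tagged with FLAG in a retroviral vector, followed on day 5. Cells were kept to day 16, under puromycin at 2 µg/ml and hygromycin at 400 µg/ml. The table's mut9d columns were taken to be the DAF-mut9 libraries because no other title remained for them, and every DAF-mut9 value rests on this reading. The replicates came from separate knockdown and rescue experiments in this 1 line. The p-values measure the spread between libraries that remains once differences shared by a replicate set are taken out.

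SOX proteins bind the minor groove of DNA through a shared HMG box and bend it, and they act with partner factors on genes of stem cells, neural crest, cartilage and nerve. They are sorted into subfamilies by sequence. SOX2 belongs to SoxB1, SOX4, SOX11 and SOX12 to SoxC, SOX5, SOX6 and SOX13 to SoxD, and SOX8, SOX9 and SOX10 to SoxE. EWS/FLI joins the low-complexity domain of EWS to the ETS DNA-binding domain of FLI1, which reads a GGAA core, and it both activates and represses genes in Ewing sarcoma, a tumour of bone and soft tissue.

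RefSeq promoter entries (GRCh38.p14) were found for 6 of the 10 genes: SOX2, SOX4, SOX5, SOX6, SOX12 and SOX13. The 250 bases before the start are shown for the pair that rose most and the pair that fell most in iLuc relative to iEF among those 6, because the subfamily SoxD is split between them. They run 5′ to 3′ on the gene's strand. Capitals mark each GGAA or its reverse complement TTCC.

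SOX6 (chr11:16738478-16738727, minus strand): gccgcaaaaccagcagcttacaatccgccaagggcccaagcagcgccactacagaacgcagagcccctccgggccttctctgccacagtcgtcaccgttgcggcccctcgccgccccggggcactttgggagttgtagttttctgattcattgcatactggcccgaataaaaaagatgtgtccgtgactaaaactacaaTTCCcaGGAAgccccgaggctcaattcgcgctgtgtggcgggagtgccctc

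SOX12 (chr20:325302-325551, plus strand): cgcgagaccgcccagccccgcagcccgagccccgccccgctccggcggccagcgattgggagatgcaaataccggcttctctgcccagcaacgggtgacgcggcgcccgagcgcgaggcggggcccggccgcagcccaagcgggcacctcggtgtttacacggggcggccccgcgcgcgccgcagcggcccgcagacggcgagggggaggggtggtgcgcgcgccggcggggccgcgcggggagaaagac

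SOX5 (chr12:24562492-24562741, minus strand): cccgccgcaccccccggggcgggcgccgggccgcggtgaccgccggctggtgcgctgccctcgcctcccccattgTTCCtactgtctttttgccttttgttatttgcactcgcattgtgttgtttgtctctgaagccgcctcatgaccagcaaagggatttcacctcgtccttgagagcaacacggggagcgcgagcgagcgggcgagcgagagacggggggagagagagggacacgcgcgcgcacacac

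SOX13 (chr1:204072865-204073114, plus strand): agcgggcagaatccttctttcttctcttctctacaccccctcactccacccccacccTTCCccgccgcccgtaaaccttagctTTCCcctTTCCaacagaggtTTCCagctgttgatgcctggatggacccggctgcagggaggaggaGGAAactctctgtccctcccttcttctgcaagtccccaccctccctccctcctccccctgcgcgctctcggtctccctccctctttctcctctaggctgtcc

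Within these windows the number of GGAA matches did not sort with direction. The windows hold only bases next to the start, while the paper also places regulation at distant sites. A relation to the fusion was not tested. SOX13, which was lower in iLuc than in iEF, had 5 GGAA cores, and SOX4, which was higher, had 6. SOX12, higher in iLuc, had 0 and SOX5, lower, had 1. SOX2 had 1. SOX6 had 5 listed starts, and the outermost, shown above, had 2. The innermost SOX6 start had 6 and, alone among the 10 windows of the family, a tandem GGAAGGAA, here on the other strand. Over all 35116 promoter windows of this length, 92.7% held a GGAA core on either strand, 3.06% held the tandem, which contains GGAA 2 times, and the median window had 3 cores. A SOX core, AACAAT on either strand, was found once in the SOX5 window, where it overlaps the TTCC, and in 8.98% of all windows. It was in 3 of the 5 SOX6 windows and in none of the SOX2, SOX4, SOX12 and SOX13 windows.

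Levels are given as CPM, counts scaled to library size by the TMM method. Library totals were 32.9 to 46.2 M counts, so 1 CPM stood for 32.0 to 45.3 counts. Differences are log2 fold changes with their standard error from edgeR's quasi-likelihood fit to all 21 libraries with the replicate set as a term. Values given in parentheses as a log2 fold change ± SE carry the edgeR adjusted p. A gene was called at a Benjamini-Hochberg adjusted p under 0.05 over the 30549 genes tested. FLI1, whose 3′ exons the fusion transcript carries, was at 61.3, 60.6 and 89.03 CPM in iLuc and 20.8, 20.02 and 21.1 CPM in iEF (log2 fold change 1.75 ± 0.14 SE, edgeR adjusted p = 1.33e-09). Its mean was 24.5 ± 2.39 (SD, n = 3) in WT-EF, 30.7 ± 2.52 in mut9, 37.02 ± 2.43 in DAF and 36.3 ± 1.49 CPM in DAF-mut9, and the Δ22 libraries stood at 41.3, 45.2 and 61.99 CPM. FLI1 was not called between WT-EF and iEF (0.24 ± 0.13, adjusted p = 0.196) and was higher with DAF than with WT-EF (0.60 ± 0.13, adjusted p = 0.00173). The rescued groups therefore did not share one FLI1 level, and the part this has in the differences between them was not tested. FLI1 counts do not separate the endogenous transcript from the cDNA. Whether both cover the same FLI1 exon bases is not given in the sources used here. The FLI1 level is therefore not read as the amount of construct made. The paper reports a western blot of rescue with the tagged constructs. Of 8 markers of Ewing sarcoma cells, 7 were called higher in iLuc than in iEF, against a background of 41.1% of all tested genes called in either direction. CD99, a surface marker of the tumour, was listed at 0 to 8 counts in every library, and the cause was not tested.

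Markers of other cell types were low. Summed levels of 4 markers each reached at most 3.74 CPM for leukocytes, 1.67 for epithelial cells, 1.55 for melanocytes, 7.005 for Schwann cells and 1.97 for chondrocytes. Of 4 endothelial markers 3 were analysed here, and their sum was 0.575 to 0.952 CPM in iLuc and 5.97 to 25.1 CPM in iEF, and up to 40.5 CPM with constructs. Nearly all of that sum was KDR, a receptor for VEGF, at 0.707 ± 0.117 CPM in iLuc and 15.5 ± 9.61 CPM in iEF, while VWF stood at 0.0338 ± 0.0293 CPM in iLuc and 0.483 ± 0.330 CPM in iEF and CDH5, a defining endothelial cadherin, at 0 to 34 counts per library. Their part in the results was not tested. In bulk RNA, fewer cells with a transcript and less transcript per cell cannot be told apart.

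Scaled for exon length, SOX2, SOX9, SOX4 and SOX11 formed the upper tier, with means over the 21 libraries of 29.8, 26.1, 24.8 and 21.99 CPM per kb of exon. SOX5 followed at 4.97 CPM per kb. SOX12, SOX6, SOX13 and SOX8 lay between 2.16 and 1.58 CPM per kb, and SOX10 was at 0.0172. Within the upper tier the first place changed with the group. SOX2 led in iLuc at 39.98 CPM per kb, where SOX9 stood at 7.53. SOX11 and SOX9 led in iEF, at 31.6 and 31.1 CPM per kb, where SOX2 stood at 19.8. With WT-EF the highest was SOX4, at 36.7 CPM per kb.

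**Figure D1:**
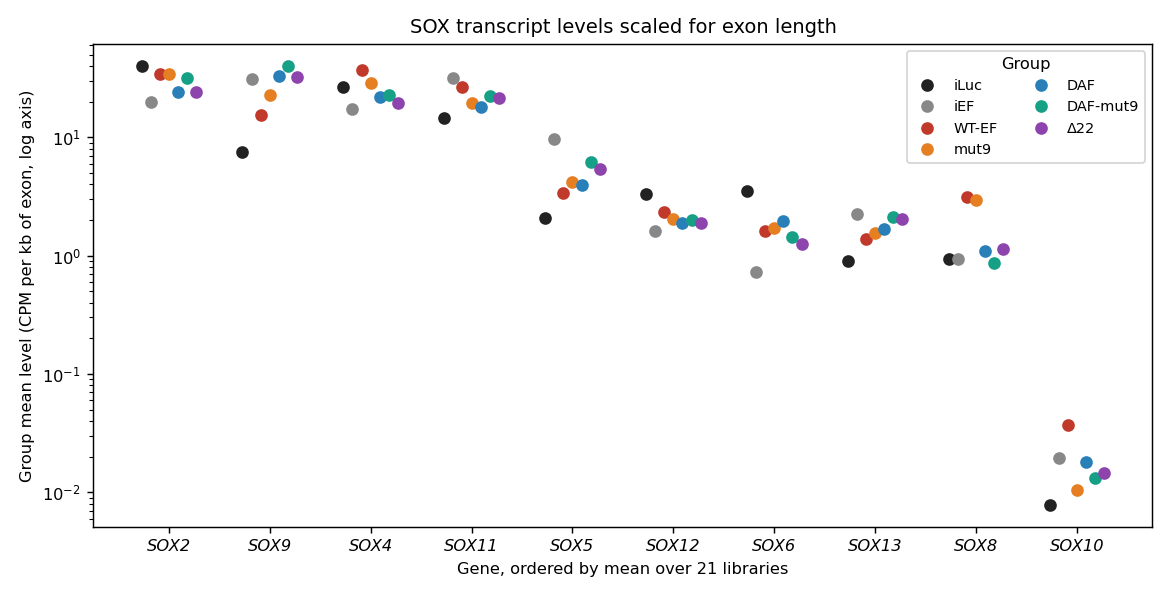
Group mean level of each SOX gene, in CPM per kb of exon on a log axis, with genes ordered by their mean over 21 libraries and 1 point per group (n = 3 libraries). SOX10 lies near 0.0172 CPM per kb on average, far below the other 9 genes, while SOX2, SOX9, SOX4 and SOX11 share the top of the plot.

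Endogenous EWS/FLI was compared with its depletion first (iLuc against iEF). SOX2, SOX4, SOX6 and SOX12 were higher with the fusion and SOX5, SOX9, SOX11 and SOX13 were lower, so that 8 of the 10 genes were called, against a background of 41.1% of all tested genes. The largest differences were SOX6, 4.85-fold higher, SOX5, 4.72-fold lower, and SOX9, 4.14-fold lower. For those 8 genes the 3 iLuc libraries did not overlap the 3 iEF libraries. The share of all tested genes without such an overlap was not counted, for these groups or any others. A lack of overlap, here or below, therefore adds no support to a call or a difference. The median absolute log2 fold change was 1.14 over the 10 genes and 0.69 over all tested genes. All members but SOX10 lay at percentiles 67.1 to 96.9 of mean level among tested genes, so the background holds many lower genes. The members were also chosen with earlier results of these data known. An excess over the background, here or below, is therefore not read as a trait of the family. SOX8 and SOX10 were not called. All 8 calls were made in each alternative analysis in which the gene was tested, including those without 1 library.

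Rescue with WT-EF gave 8 called genes against iEF, with a background of 28.3%, and mut9 gave 7, with a background of 14.5%. DAF gave 3, with a background of 7.42%, DAF-mut9 gave 2, with 3.4%, and Δ22 gave 1, with 2.67%. The same iEF libraries stand in each of these comparisons, and in the iLuc comparison too. In WT-EF, SOX2, SOX4, SOX6, SOX8 and SOX12 were higher and SOX5, SOX9 and SOX13 lower. In mut9, SOX2, SOX4, SOX6 and SOX8 were higher and SOX5, SOX11 and SOX13 lower. With DAF, SOX6 was higher and SOX5 and SOX11 lower. SOX2 and SOX6 were called higher with DAF-mut9, and SOX6 with Δ22. The median absolute log2 fold change over the 10 genes was 0.98 for WT-EF and 0.76 for mut9, where all tested genes had 0.53 and 0.40. For DAF it was 0.33, for DAF-mut9 0.43 and for Δ22 0.27, where all tested genes had 0.34, 0.30 and 0.29.

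**Figure D2:**
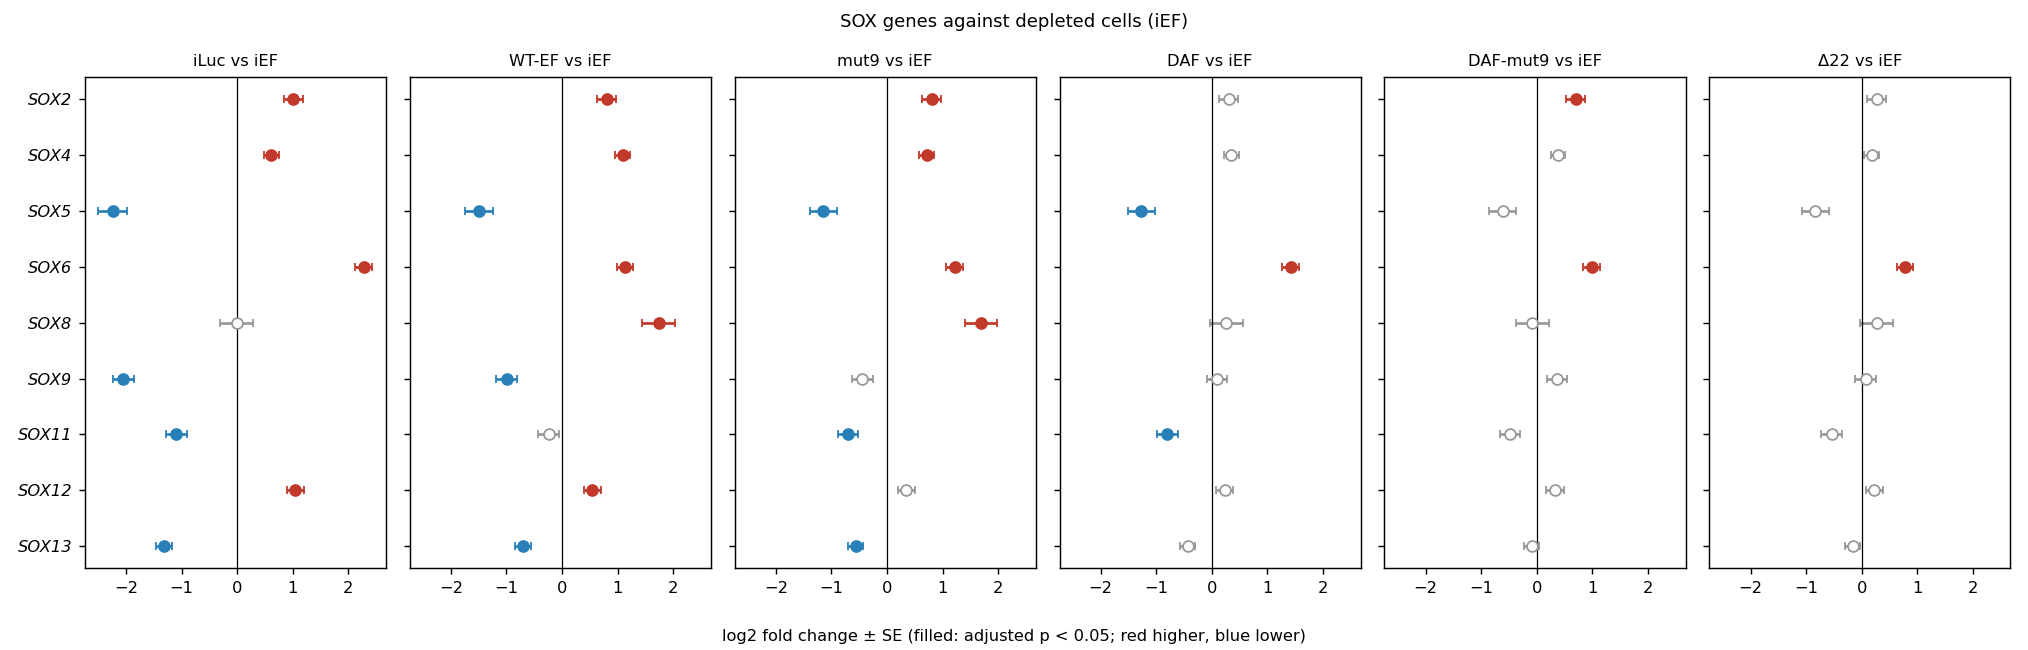
Log2 fold change ± SE of 9 SOX genes in each of 6 groups relative to depleted cells (iEF), 3 libraries per group, with filled points at an adjusted p under 0.05, red for higher and blue for lower. SOX6 is filled and to the right in all 6 panels, and SOX8 in the WT-EF and mut9 panels, at 1.74 and 1.69. SOX10, at 0 to 14 counts per library, is not drawn.

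SOX2, a SoxB1 factor that keeps neural and embryonic progenitors undifferentiated, is a gene of 1 exon at chr3:181429713-181432224 (GRCh37, plus strand). It was at 103, 123 and 75.03 CPM in the iLuc libraries and 45.4, 58.8 and 45.01 CPM in iEF. Rescued cells had 92.3, 86.7 and 78.7 CPM with WT-EF and 97.6, 94.3 and 67.4 CPM with mut9. All 6 of those rescue libraries lay above the iEF libraries. DAF cells had 48.4, 60.01 and 73.4 CPM, DAF-mut9 cells 74.3, 87.8 and 78.5 CPM and Δ22 cells 47.4, 77.4 and 56.4 CPM. Ordered by mean, the groups ran iLuc, mut9, WT-EF, DAF-mut9, DAF, Δ22 and iEF from high to low, and the only neighbours whose ranges did not overlap were DAF-mut9 and DAF.

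The SOX2 level was 2.01-fold higher in iLuc than in iEF (log2 fold change 1.01 ± 0.17 SE, edgeR adjusted p = 6.07e-05). It was also higher with WT-EF (0.80 ± 0.17, adjusted p = 0.00112) and with mut9 (0.80 ± 0.17, adjusted p = 0.00235). DAF differed from iEF by 0.30 (95% interval -0.03 to 0.64, adjusted p = 0.355) and Δ22 by 0.27 (interval -0.06 to 0.61, adjusted p = 0.530). DAF-mut9 was called higher (0.70 ± 0.17, adjusted p = 0.0264), but not without the replicate block (0.69, adjusted p = 0.0670), nor without iEF replicate 1 or 3 or DAF-mut9 replicate 1, 2 or 3 (log2 fold change 0.65 to 0.72, adjusted p 0.0725 to 0.118). SOX2 was lower with DAF than with WT-EF (-0.50 ± 0.17, adjusted p = 0.0364), a call lost without the block (-0.50, adjusted p = 0.0684) and without WT-EF replicate 1 or 3 or DAF replicate 1 or 2 (log2 fold change -0.53 to -0.36, adjusted p 0.0645 to 0.207). DAF against mut9 gave -0.50 ± 0.17, adjusted p = 0.0897, and was called without DAF replicate 3 (-0.75, adjusted p = 0.00817) and with no low-count filter (adjusted p = 0.00605). mut9 against Δ22 gave 0.53 ± 0.17, adjusted p = 0.0564, and was called without Δ22 replicate 2 (0.66, adjusted p = 0.0466) or mut9 replicate 3 (0.66, adjusted p = 0.0320) and with no low-count filter, the compared groups alone or DESeq2 (adjusted p 0.00138 to 0.0482). Between WT-EF and Δ22 the difference was 0.53 ± 0.17, adjusted p = 0.0257, again lost without the block (0.51, adjusted p = 0.0653) and without WT-EF replicate 1 or Δ22 replicate 1 or 3 (log2 fold change 0.39 to 0.54, adjusted p 0.0611 to 0.160).

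The SoxC factors SOX4, SOX11 and SOX12 are activators known from neuronal progenitors and other growing tissues. SOX4, which also acts in B cell and heart development, lies at chr6:21593982-21598850 (GRCh37, plus strand). Its level was 144, 144 and 101 CPM in iLuc, 72.4, 99.4 and 81.97 CPM in iEF and 177, 169 and 189 CPM in WT-EF. The WT-EF libraries were the highest of the 21. It was 127, 163 and 127 CPM in mut9, 119, 103 and 99.5 CPM in DAF, 109.5, 113 and 107 CPM in DAF-mut9 and 84.1, 108 and 93.9 CPM in Δ22. From the highest mean to the lowest, the order was WT-EF, mut9, iLuc, DAF-mut9, DAF, Δ22 and iEF, and the only neighbours whose ranges did not overlap were WT-EF and mut9.

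SOX4 was called higher than in iEF in iLuc (log2 fold change 0.62 ± 0.13 SE, edgeR adjusted p = 7.74e-04), WT-EF (1.09 ± 0.13, adjusted p = 2.55e-06) and mut9 (0.72 ± 0.13, adjusted p = 7.23e-04). Its values against iEF were 0.35 ± 0.13, adjusted p = 0.133 with DAF, 0.38 ± 0.13, adjusted p = 0.138 with DAF-mut9 and 0.18 ± 0.13, adjusted p = 0.631 with Δ22. The rescue with WT-EF exceeded the endogenous level (0.47 ± 0.13, adjusted p = 0.0156), a call lost without iLuc replicate 3 or WT-EF replicate 3 (log2 fold change 0.33 to 0.40, adjusted p 0.0839 to 0.0908). DAF was 1.67-fold below WT-EF (-0.74 ± 0.13, adjusted p = 2.73e-04), with no overlap between the 2 groups. WT-EF was above Δ22 (0.91 ± 0.13, adjusted p = 2.58e-05). So was mut9 (0.54 ± 0.13, adjusted p = 0.0113), a call lost without Δ22 replicate 1 or mut9 replicate 2 (log2 fold change 0.46, adjusted p 0.0769 to 0.0935).

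SOX11, at chr2:5832516-5841517 (GRCh37, plus strand), marks immature neurons and had the highest mean of the 10 genes over the 21 libraries, 198 CPM, though not the highest level in each library. Its exons share 74 bases with an unnamed gene on the same strand, so a small part of its reads is uncertain. The levels were 101, 178 and 117 CPM in iLuc, 236, 229 and 388 CPM in iEF and 179, 284 and 258 CPM in WT-EF. One iEF library stood well above the other two. The levels were 154, 139 and 229.5 CPM in mut9, 134, 179.9 and 172 CPM in DAF, 191, 174 and 237 CPM in DAF-mut9 and 170.0, 206 and 203 CPM in Δ22. The group means of SOX11 descended in the order iEF, WT-EF, DAF-mut9, Δ22, mut9, DAF and iLuc, and the ranges of every pair of neighbours overlapped.

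With the endogenous fusion SOX11 was 2.14-fold lower than in iEF (log2 fold change -1.10 ± 0.19 SE, edgeR adjusted p = 8.01e-05). It was called lower with mut9 (-0.70 ± 0.19, adjusted p = 0.0138) and lost that call without iEF replicate 3 or mut9 replicate 2 (log2 fold change -0.53, adjusted p 0.109 to 0.116). DAF gave -0.80 ± 0.19, adjusted p = 0.0107, lost without iEF replicate 3 or DAF replicate 1 or 3 (log2 fold change -0.79 to -0.61, adjusted p 0.0526 to 0.0978). Values were -0.48 ± 0.19, adjusted p = 0.203 with DAF-mut9 and -0.54 ± 0.19, adjusted p = 0.152 with Δ22, both called with no low-count filter (adjusted p = 0.00163 and 3.31e-04). WT-EF did not differ detectably from iEF (-0.24, 95% interval -0.61 to 0.13, adjusted p = 0.386), and lay above iLuc (0.86 ± 0.19, adjusted p = 0.00263). DAF was below WT-EF (-0.56 ± 0.19, adjusted p = 0.0329), a call lost without the replicate block (-0.57, adjusted p = 0.0865), with limma on the authors' adjusted values (-0.47, adjusted p = 0.0531) and without WT-EF replicate 2 or DAF replicate 1, 2 or 3 (log2 fold change -0.63 to -0.44, adjusted p 0.0523 to 0.162).

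SOX12, the third SoxC gene, at chr20:306196-310868 (GRCh37, plus strand), was at 16.2, 16.8 and 13.5 CPM in iLuc and 7.61, 9.32 and 5.70 CPM in iEF. It was at 9.66, 12.9 and 10.4 CPM in WT-EF, 8.16, 11.5 and 9.13 CPM in mut9, 8.02, 8.44 and 9.72 CPM in DAF, 9.83, 9.46 and 8.85 CPM in DAF-mut9 and 7.95, 9.17 and 9.14 CPM in Δ22. All iLuc libraries lay above the other 18. Ordered by mean, the groups ran iLuc, WT-EF, mut9, DAF-mut9, Δ22, DAF and iEF from high to low, and the only neighbours whose ranges did not overlap were iLuc and WT-EF. The difference between iLuc and iEF was 2.07-fold (log2 fold change 1.05 ± 0.16 SE, edgeR adjusted p = 1.48e-05). WT-EF was called higher than iEF (0.55 ± 0.16, adjusted p = 0.0121), a call lost without iEF replicate 3 or WT-EF replicate 2 (log2 fold change 0.38 to 0.51, adjusted p 0.0516 to 0.0942). The rescue fell short of iLuc (-0.50 ± 0.16, adjusted p = 0.0280), a call lost without the block (-0.50, adjusted p = 0.0578), with no low-count filter (-0.51, adjusted p = 0.0505) and without iLuc replicate 1 or 2 or WT-EF replicate 1, 2 or 3 (log2 fold change -0.54 to -0.40, adjusted p 0.0538 to 0.148). The values against iEF were 0.35 ± 0.16, adjusted p = 0.162 with mut9, 0.23 ± 0.16, adjusted p = 0.488 with DAF, 0.33 ± 0.16, adjusted p = 0.337 with DAF-mut9 and 0.23 ± 0.16, adjusted p = 0.594 with Δ22, none of them called. The SoxC genes therefore did not move together: SOX4 and SOX12 rose and SOX11 fell with the endogenous fusion.

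SoxD proteins lack a transactivation domain of their own and pair with each other. SOX5 and SOX6 assist SOX9 on cartilage genes and also act in neural crest, oligodendrocytes and, for SOX6, red cell and muscle fibre development. SOX5, at chr12:23682438-24715478 (GRCh37, minus strand), was at 23.3, 36.8 and 10.9 CPM in iLuc and 87.6, 137 and 100.2 CPM in iEF. With constructs it was at 37.4, 45.7 and 32.00 CPM in WT-EF, 49.6, 38.8 and 54.1 CPM in mut9 and 39.8, 53.4 and 41.1 CPM in DAF. Each of those 9 libraries lay below the lowest iEF library. DAF-mut9 had 66.9, 66.1 and 75.1 CPM and Δ22 67.4, 66.4 and 47.6 CPM. From the highest mean to the lowest, the order was iEF, DAF-mut9, Δ22, mut9, DAF, WT-EF and iLuc, and the only neighbours whose ranges did not overlap were iEF and DAF-mut9.

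SOX5 was 4.72-fold lower in iLuc than in iEF (log2 fold change -2.24 ± 0.26 SE, edgeR adjusted p = 4.06e-07). It fell with WT-EF (-1.50 ± 0.25, adjusted p = 9.26e-05), with mut9 (-1.15 ± 0.25, adjusted p = 0.00269) and with DAF (-1.27 ± 0.25, adjusted p = 0.00256). With DAF-mut9 the difference was -0.61 ± 0.24, adjusted p = 0.221 and with Δ22 -0.83 ± 0.25, adjusted p = 0.0786. Neither group's libraries overlapped iEF, which adds no support to a difference. WT-EF stayed above iLuc (0.74 ± 0.25, adjusted p = 0.0415), a call lost without the block (0.70, adjusted p = 0.0953) and without iLuc replicate 1 or 3 or WT-EF replicate 1, 2 or 3 (log2 fold change 0.40 to 0.81, adjusted p 0.0700 to 0.180). The Δ22 difference was called with no low-count filter, the compared groups alone or DESeq2 (adjusted p 6.70e-08 to 0.0363), and the DAF-mut9 difference with no low-count filter (adjusted p = 1.90e-04). WT-EF against Δ22 gave -0.66 ± 0.25, adjusted p = 0.0540, and was called with no low-count filter, edgeR's own filter, the compared groups alone, DESeq2 or limma on the adjusted values (adjusted p 4.34e-05 to 0.0475). DAF against mut9 gave -0.13 (95% interval -0.61 to 0.36, adjusted p = 0.855).

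SOX6, at chr11:15987995-16761138 (GRCh37, minus strand), had the largest rise of the 10 genes from iEF to iLuc. Its levels were 77.7, 70.6 and 64.4 CPM in iLuc, 15.4, 16.5 and 12.2 CPM in iEF and 27.2, 37.1 and 32.7 CPM in WT-EF. They were 30.9, 44.1 and 28.5 CPM in mut9, 34.7, 46.2 and 37.02 CPM in DAF, 32.1, 29.5 and 25.4 CPM in DAF-mut9 and 21.4, 26.5 and 27.6 CPM in Δ22. The iEF libraries were the lowest 3 of the 21 and the iLuc libraries the highest 3. The group means of SOX6 descended in the order iLuc, DAF, mut9, WT-EF, DAF-mut9, Δ22 and iEF, and the neighbours whose ranges did not overlap were iLuc and DAF, and Δ22 and iEF.

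SOX6 was 4.85-fold higher in iLuc than in iEF (log2 fold change 2.28 ± 0.15 SE, edgeR adjusted p = 1.56e-10). Every rescue group was called higher than iEF: WT-EF (1.14 ± 0.15, adjusted p = 5.02e-06), mut9 (1.22 ± 0.15, adjusted p = 6.18e-06), DAF (1.42 ± 0.15, adjusted p = 3.99e-06), DAF-mut9 (0.99 ± 0.15, adjusted p = 7.77e-04) and Δ22 (0.78 ± 0.15, adjusted p = 0.00664). The Δ22 call was lost without Δ22 replicate 3 (log2 fold change 0.63, adjusted p 0.0688). Δ22 has no EWS domain, and it was the group with the highest FLI1 level among the rescued cells. The rescued groups differ in both the EWS domain and the FLI1 level, and the part of each in the SOX6 call was not tested. Rescue with WT-EF reached a level 2.21-fold below iLuc (-1.14 ± 0.15, adjusted p = 8.87e-06). DAF was above Δ22 (0.63 ± 0.15, adjusted p = 0.0362), a call lost without the block (0.64, adjusted p = 0.114) and without Δ22 replicate 1 or 2 or DAF replicate 1, 2 or 3 (log2 fold change 0.54 to 0.70, adjusted p 0.0578 to 0.271). WT-EF against Δ22 gave 0.35 ± 0.15, adjusted p = 0.0830, and mut9 against Δ22 0.44 ± 0.15, adjusted p = 0.0675. The Δ22 calls were gained by WT-EF without WT-EF replicate 1 (0.47, adjusted p = 0.0361) or Δ22 replicate 3 (0.51, adjusted p = 0.0238), and by mut9 without Δ22 replicate 3 (0.59, adjusted p = 0.0231). WT-EF was also called above Δ22 with no low-count filter or the compared groups alone (adjusted p 0.0130 to 0.0442), and mut9 with no low-count filter or DESeq2 (adjusted p 0.0370 to 0.0492). DAF and WT-EF differed by 0.28 ± 0.14, adjusted p = 0.177.

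SOX13, at chr1:204042243-204096871 (GRCh37, plus strand), a SoxD gene known from T cell and neural development, was at 6.03, 6.74 and 7.44 CPM in iLuc and 16.6, 16.5 and 17.2 CPM in iEF. Rescued cells had 11.5, 9.05 and 10.4 CPM with WT-EF, 10.8, 10.04 and 13.5 CPM with mut9 and 11.5, 11.03 and 15.04 CPM with DAF. DAF-mut9 cells had 17.4, 14.3 and 15.4 CPM and Δ22 cells 13.8, 13.1 and 18.6 CPM. Ordered by mean, the groups ran iEF, DAF-mut9, Δ22, DAF, mut9, WT-EF and iLuc from high to low, and the only neighbours whose ranges did not overlap were WT-EF and iLuc. SOX13 was 2.49-fold lower in iLuc (log2 fold change -1.32 ± 0.14 SE, edgeR adjusted p = 1.58e-07), and lower with WT-EF (-0.70 ± 0.14, adjusted p = 5.32e-04). It was called lower with mut9 (-0.56 ± 0.14, adjusted p = 0.00742), though not in a fit of those 2 groups alone (-0.58, adjusted p = 0.0567). WT-EF lay above iLuc (0.61 ± 0.14, adjusted p = 0.00362) and below Δ22 (-0.54 ± 0.14, adjusted p = 0.00566). DAF against iEF gave -0.44 ± 0.14, adjusted p = 0.0610, and was called with edgeR's own filter, DESeq2 or limma on the adjusted values (adjusted p 0.0122 to 0.0421). DAF-mut9 was above mut9 (0.47 ± 0.14, adjusted p = 0.0337), a call lost without the block (0.46, adjusted p = 0.0991), with no low-count filter (0.46, adjusted p = 0.104) and without mut9 replicate 1 or 2 or DAF-mut9 replicate 1 or 2 (log2 fold change 0.36 to 0.47, adjusted p 0.0998 to 0.203). SoxD was thus split, with SOX6 higher and SOX5 and SOX13 lower in iLuc, WT-EF and mut9 relative to iEF.

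SoxE factors specify neural crest and its descendants: SOX9 is the master regulator of cartilage and acts in gonad and hair follicle, SOX10 directs glia and melanocytes, and SOX8 overlaps with both. SOX8, at chr16:1031770-1036979 (GRCh37, plus strand), was at 3.06, 3.62 and 5.79 CPM in iLuc and 4.78, 2.85 and 4.89 CPM in iEF. It was at 15.01, 9.46 and 17.7 CPM in WT-EF and 8.92, 15.1 and 15.3 CPM in mut9. Those 6 libraries were the highest 6 of the 21. The other rescued cells had 7.50, 3.26 and 4.03 CPM with DAF, 3.83, 3.81 and 3.93 CPM with DAF-mut9 and 4.42, 3.60 and 7.27 CPM with Δ22. The SOX8 counts behind these levels were 91 to 720 per library. From the highest mean to the lowest, the order was WT-EF, mut9, Δ22, DAF, iEF, iLuc and DAF-mut9, and the only neighbours whose ranges did not overlap were mut9 and Δ22.

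SOX8 did not differ detectably between iLuc and iEF (log2 fold change -0.01, 95% interval -0.58 to 0.57, edgeR adjusted p = 0.989). It was 3.34-fold higher with WT-EF (1.74 ± 0.29, adjusted p = 9.45e-05) and 3.23-fold higher with mut9 (1.69 ± 0.29, adjusted p = 3.27e-04) than in iEF. WT-EF exceeded the endogenous fusion as well (1.74 ± 0.29, adjusted p = 1.76e-04). The constructs with tyrosine substitutions stood below their parents. DAF was 2.78-fold below WT-EF (-1.48 ± 0.29, adjusted p = 5.94e-04) and 2.69-fold below mut9 (-1.43 ± 0.29, adjusted p = 0.00380), and DAF-mut9 was 3.41-fold below mut9 (-1.77 ± 0.29, adjusted p = 2.88e-04). DAF against iEF gave 0.26 (interval -0.31 to 0.83), DAF-mut9 -0.08 (interval -0.66 to 0.49) and Δ22 0.27 (interval -0.30 to 0.84), none of them called. WT-EF was above Δ22 (1.47 ± 0.29, adjusted p = 5.38e-04), as was mut9 (1.42 ± 0.29, adjusted p = 0.00214). WT-EF and mut9 differed by -0.05 (interval -0.59 to 0.50). All 8 SOX8 calls among the 15 comparisons were made in every alternative in which the gene was tested, those without 1 library included.

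SOX9, at chr17:70117161-70122557 (GRCh37, plus strand), was at 37.9, 31.9 and 18.99 CPM in iLuc and 132, 116 and 119 CPM in iEF. It was at 64.5, 64.3 and 54.8 CPM in WT-EF and 84.1, 78.3 and 108 CPM in mut9. The ranges of these groups did not overlap, from iLuc through WT-EF and mut9 to iEF, but mut9 was called against neither WT-EF nor iEF in the main fit. The levels were 120.5, 141 and 129 CPM in DAF, 162, 142 and 169 CPM in DAF-mut9 and 108, 127 and 148 CPM in Δ22. The group means of SOX9 descended in the order DAF-mut9, DAF, Δ22, iEF, mut9, WT-EF and iLuc, and the neighbours whose ranges did not overlap were DAF-mut9 and DAF, iEF and mut9, mut9 and WT-EF, and WT-EF and iLuc.

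SOX9 was 4.14-fold lower in iLuc than in iEF (log2 fold change -2.05 ± 0.19 SE, edgeR adjusted p = 2.02e-08). It was 1.996-fold lower with WT-EF (-0.997 ± 0.18, adjusted p = 2.77e-04), where it lay above iLuc (1.05 ± 0.19, adjusted p = 3.37e-04). With mut9 the difference from iEF was -0.44 ± 0.18, adjusted p = 0.122, and the call was gained without mut9 replicate 3 (-0.62, adjusted p = 0.0499) and with no low-count filter or limma on the adjusted values (adjusted p 0.00601 to 0.0108). DAF, DAF-mut9 and Δ22 gave 0.09 (95% interval -0.26 to 0.45), 0.37 (interval 0.01 to 0.72) and 0.07 (interval -0.29 to 0.42) against iEF, none called. The DAF-mut9 interval is wholly positive although the edgeR unadjusted p was 0.0572, since the intervals use a normal approximation. In direct comparison DAF was 2.13-fold above WT-EF (1.09 ± 0.18, adjusted p = 1.38e-04), DAF-mut9 was 1.75-fold above mut9 (0.81 ± 0.18, adjusted p = 0.00557), and WT-EF was below Δ22 (-1.07 ± 0.18, adjusted p = 1.62e-04). Those 3 calls held in each alternative. DAF against mut9 gave 0.53 ± 0.18, adjusted p = 0.0907 and mut9 against WT-EF 0.56 ± 0.18, adjusted p = 0.0799. The first was called without mut9 replicate 3 (0.71, adjusted p = 0.0425) and with no low-count filter, the compared groups alone, DESeq2 or limma on the adjusted values (adjusted p 9.28e-04 to 0.0469), and the second with no low-count filter, the compared groups alone or limma on the adjusted values (adjusted p 0.00138 to 0.0177). With mut9 replicate 3 left out mut9 was also called below Δ22, at -0.69, adjusted p = 0.0372, against -0.51 ± 0.18, adjusted p = 0.0916 with all libraries, as it was with no low-count filter, the compared groups alone or limma on the adjusted values (adjusted p 0.00219 to 0.00919).

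SOX10, at chr22:38366693-38383429 (GRCh37, minus strand), was at or near the counting floor. Its libraries held 0 to 14 counts, and the highest was 1 WT-EF library at 0.344 CPM. The other 2 WT-EF libraries were at 0.0961 and 0.0967 CPM. Of its exons 260 bases, 5.39%, are shared with POLR2F on the opposite strand, and since the strand setting of the counting is not given in the sources used here, these reads cannot be assigned with certainty. It was not called in any of the 15 comparisons, and a change was not detectable at this depth. A count of 0 in 1 library allows up to 3 counts, which is 0.0663 to 0.0938 CPM across the libraries, for counting error only.

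**Figure D3:**
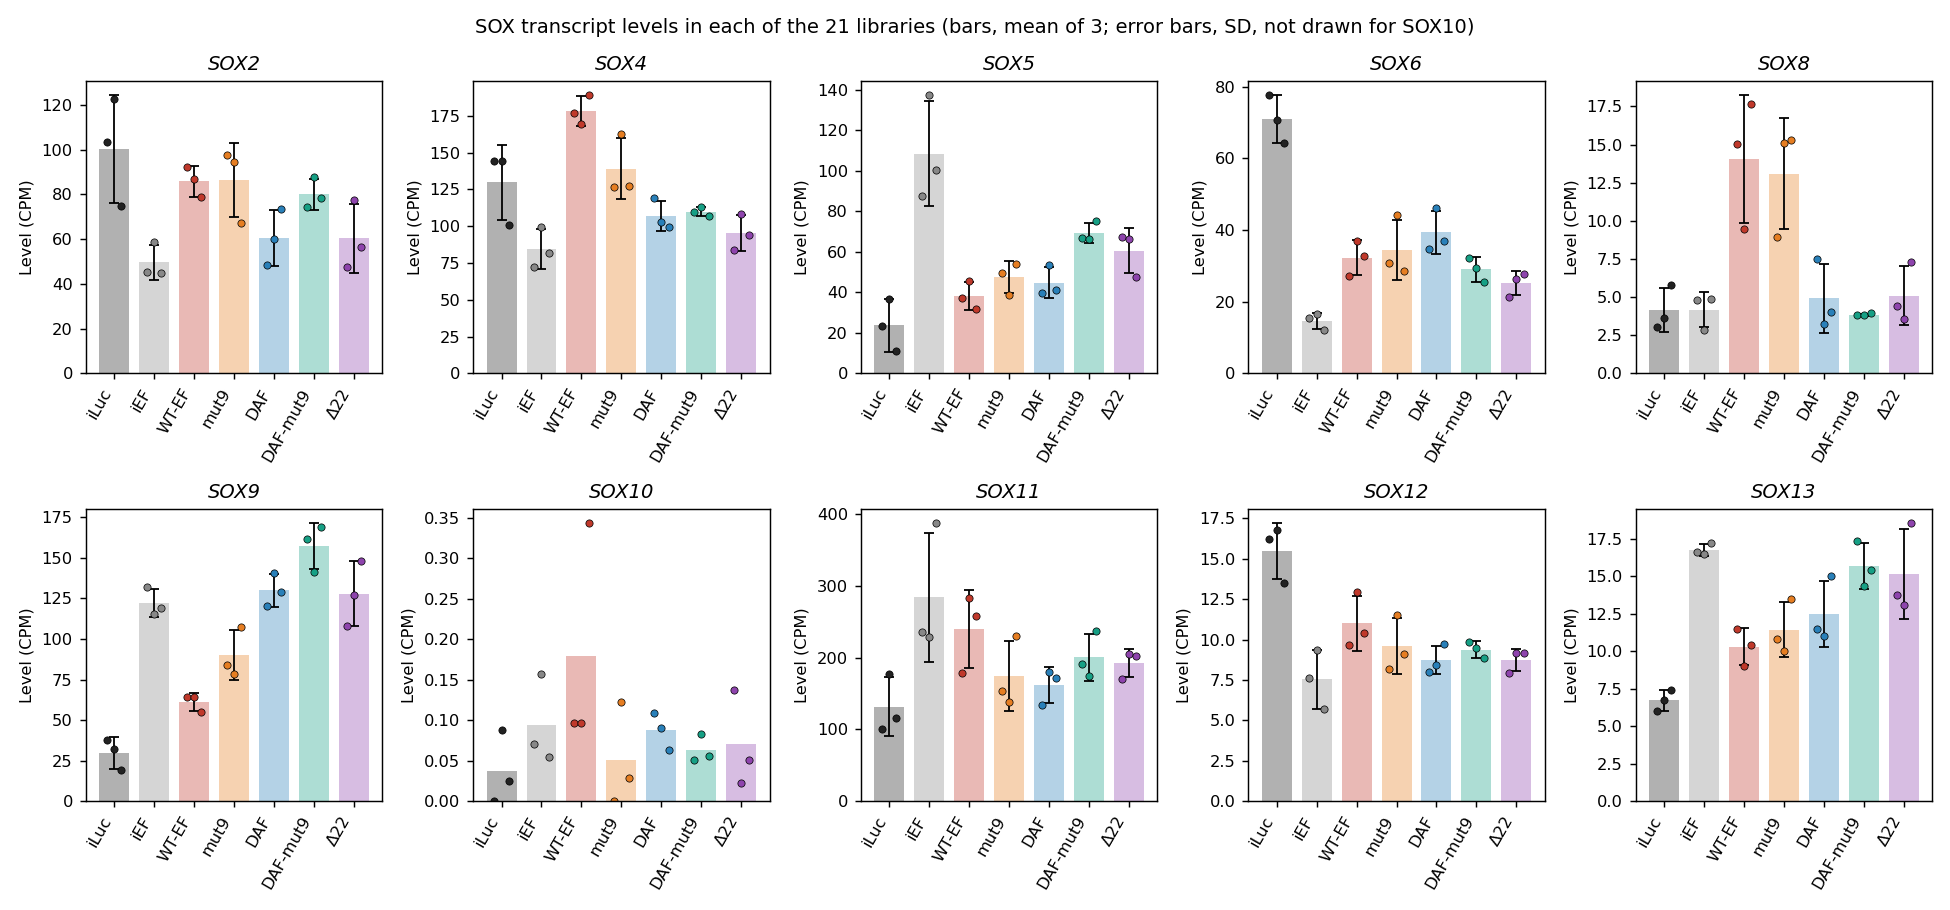
Level in CPM of each of the 10 SOX genes in the 21 libraries, with points for libraries, bars for the mean of 3 and error bars for the SD, and a separate scale from 0 for each gene. SOX8 stands high in the WT-EF and mut9 bars, SOX6 is lowest in iEF, SOX9 is lowest in iLuc at a mean of 29.6 CPM, and SOX10 stays at or below 0.344 CPM, with no SD drawn.

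Between constructs, mut9 and WT-EF differed in none of the 10 genes in the edgeR fit described above, against a background of 6.15%. Of the 10, 4 had an unadjusted p under 0.05 in that comparison, DESeq2 called 0 and limma on the authors' adjusted values 1. In edgeR fits with no low-count filter or of the compared groups alone, 3 were called, SOX4 and SOX11 lower and SOX9 higher with mut9 (adjusted p 0.00138 to 0.0267 over the 3 genes and both fits). SOX4 and SOX9 were the genes whose mut9 and WT-EF libraries did not overlap (-0.37 and 0.56, edgeR adjusted p = 0.112 and 0.0799). The share of all tested genes without such an overlap was not counted, so this adds no support to a difference. DAF against WT-EF gave 5 calls, with a background of 24.9%: SOX9 higher and SOX2, SOX4, SOX8 and SOX11 lower. DAF against mut9 gave 1, SOX8, with 6.61%. DAF-mut9 against mut9 gave 3, SOX8 lower and SOX9 and SOX13 higher, with 9.83%. SOX8 lower and SOX9 higher were called both for DAF against WT-EF and for DAF-mut9 against mut9. These 2 comparisons share no library, but they share the fit and the replicate sets and so are not independent.

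Against the negative control, WT-EF gave 5 calls with a background of 25.2%, SOX2, SOX4 and SOX8 higher and SOX9 and SOX13 lower. mut9 gave 2, SOX4 and SOX8 higher, with a background of 9.17%. DAF gave 1, SOX6, with 0.972%. DAF-mut9 gave 0 against Δ22, where the background was 0%. In that comparison 1 SOX gene and 670 of all tested genes had an unadjusted p under 0.05, and DESeq2 and limma called 0 SOX genes and 0 genes overall. WT-EF against iLuc gave 8 calls with a background of 18.3%. SOX4, SOX5, SOX8, SOX9, SOX11 and SOX13 were higher with WT-EF, and SOX6 and SOX12 lower. For SOX2, SOX5, SOX6, SOX9, SOX11, SOX12 and SOX13 the mean rescued level lay between iEF and iLuc, whereas SOX4 and SOX8 passed above both. Of those between, SOX2 with WT-EF was not called against iLuc, and SOX11 with WT-EF was not called against iEF. SOX10, near the counting floor, is not placed.

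**Figure D4:**
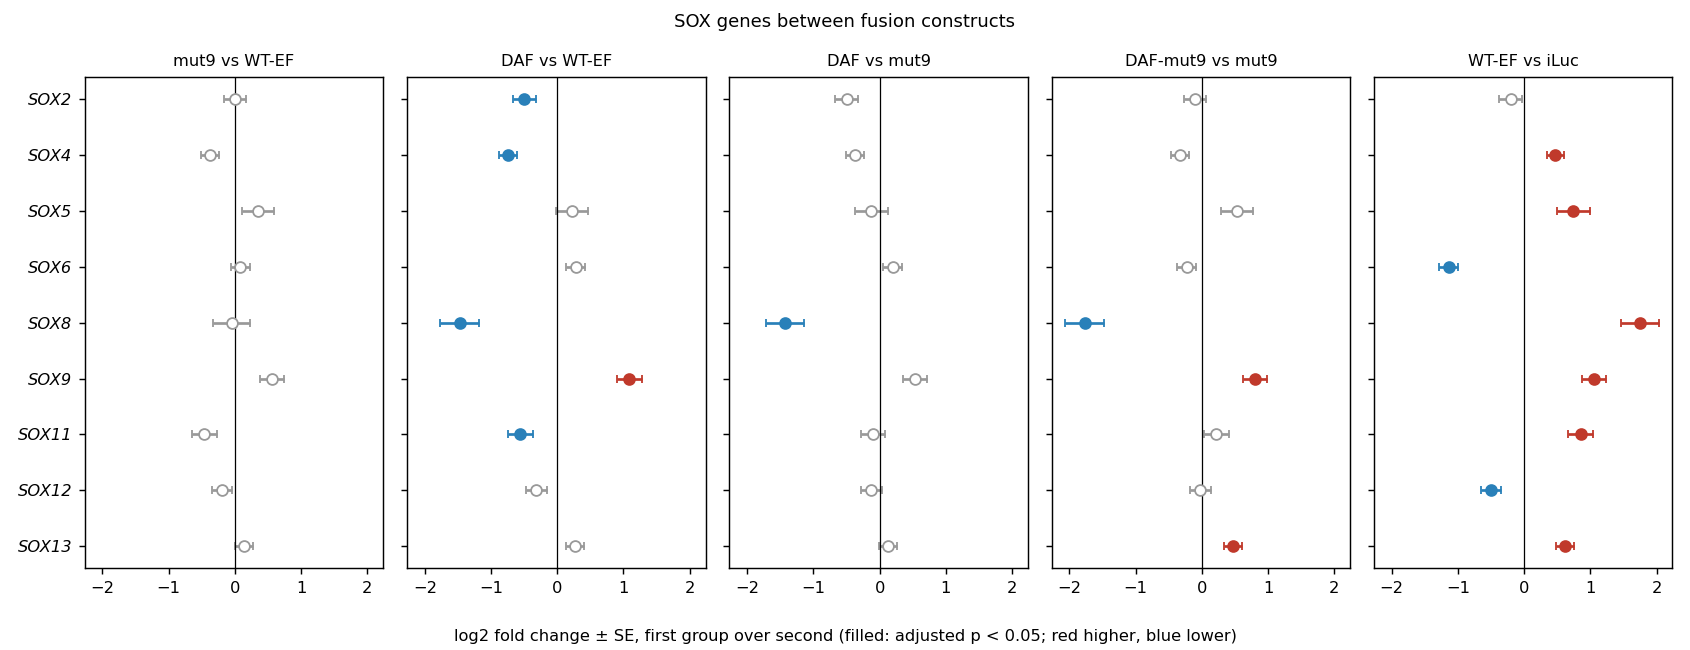
Log2 fold change ± SE of 9 SOX genes in 5 direct comparisons, first group over second, 3 libraries per group, with filled points at an adjusted p under 0.05, red for higher and blue for lower. The mut9 against WT-EF panel has no filled point, and SOX8 is the leftmost in each panel that sets a tyrosine-substituted construct against its parent, at -1.48 and -1.77.

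The other SOX genes were accounted for in the same table. SOX1, a SoxB1 partner of SOX2 in neural progenitors, was at 52.1 ± 6.21 CPM in iLuc and 2.24 ± 0.338 CPM in iEF (4.59 ± 0.27, edgeR adjusted p = 2.11e-11), and at 10.1 ± 2.48 CPM in WT-EF (2.15 ± 0.25, adjusted p = 1.18e-06). SOX17, an endoderm and endothelial factor of the SoxF group, had 0 or 1 counts in iLuc and 84 to 172 in iEF, and was called lower in iLuc (adjusted p = 4.90e-08). It had 0 to 5 counts in WT-EF and 21 to 40 in mut9, and was called lower with both (adjusted p = 3.88e-07 and 0.00290). SOX7, SOX15, SOX18, SOX21 and SOX30 were tested and not called against iEF in any of the 6 groups. SOX3 had 0 to 5 counts and SOX14 was listed at 0 throughout. SOX7 shares 39.4% of its exon bases with PINX1 on the same strand, so its reads are uncertain.

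Of the 10 listed partner factors of SOX proteins, 9 were tested, 3 were higher and 1 lower in iLuc than in iEF, with a median log2 fold change of 0.32 against 0.01 over all tested genes. For this list and those that follow, the background of called genes against iEF is 41.1% for iLuc, 2.67% for Δ22, 3.4% for DAF-mut9, 7.42% for DAF, 14.5% for mut9 and 28.3% for WT-EF. POU3F1, a POU factor of glia and neural progenitors that can bind beside SOX proteins, was at 40.7 ± 2.34 CPM in iLuc and 4.74 ± 0.722 CPM in iEF (3.09 ± 0.20, adjusted p = 7.78e-11). With WT-EF it stood at 35.02 ± 1.64 CPM and with DAF at 5.37 ± 0.950 CPM. POU3F2, its neuronal relative, was at 17.8 ± 1.15 CPM in iLuc and 3.09 ± 1.38 CPM in iEF (2.56 ± 0.25, adjusted p = 4.06e-08). EYA1, a co-activator of neural crest and ear development, was called lower (-0.61 ± 0.24, adjusted p = 0.0467), a call lost without iLuc replicate 2 or 3 or iEF replicate 2 (log2 fold change -0.48 to -0.35, adjusted p 0.191 to 0.288), without the replicate block (adjusted p = 0.078) and in a fit of those 2 groups alone (adjusted p = 0.157). With WT-EF 3 of the list were called higher, with mut9 3, and 0 with DAF, DAF-mut9 or Δ22.

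Neural crest regulators, the genes that act around SoxE factors, numbered 11, all tested. In iLuc relative to iEF 3 were higher and 6 lower, with a background of 41.1% and a median of -1.16. PAX7, a paired-box factor of neural crest and muscle stem cells, was at 65.02 ± 16.6 CPM in iLuc and 4.62 ± 0.227 CPM in iEF (3.80 ± 0.28, adjusted p = 7.26e-10), and TWIST1, a driver of mesenchymal state, at 21.99 ± 2.80 CPM in iLuc and 13.6 ± 2.12 CPM in iEF (0.71 ± 0.17, adjusted p = 0.00200). SNAI2, a repressor that marks migrating crest, was at 2.53 ± 1.26 CPM in iLuc and 40.7 ± 16.1 CPM in iEF (-4.06 ± 0.36, adjusted p = 9.76e-09), and MSX1 at 2.25 ± 0.193 CPM in iLuc and 5.78 ± 1.54 CPM in iEF (-1.35 ± 0.19, adjusted p = 5.16e-06). With WT-EF 3 were higher and 2 lower, with mut9 2 and 3, with DAF 4 and 0, and with DAF-mut9 and Δ22 none was called, with backgrounds of 28.3%, 14.5%, 7.42%, 3.4% and 2.67%.

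Among 13 cartilage genes that SOX9 is known to bind with SOX5 and SOX6, 2 were higher and 4 lower in iLuc than in iEF, a share near the background of 41.1%, with a median of -0.37. COL11A1, a fibril collagen, was at 0.658 ± 0.125 CPM in iLuc and 17.6 ± 7.99 CPM in iEF (-4.78 ± 0.46, adjusted p = 3.46e-08), and COL9A3 at 9.15 ± 3.56 CPM in iLuc and 22.9 ± 13.3 CPM in iEF (-1.29 ± 0.27, adjusted p = 4.90e-04). With WT-EF COL11A1 was at 28.5 ± 14.4 CPM (0.61 ± 0.36, adjusted p = 0.233). COL2A1 and ACAN, which define cartilage, were low in every library. COL2A1 had 9 to 52 counts per library and ACAN 0 to 28. With WT-EF 1 of the list was higher and 4 lower, with a background of 28.3%.

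The 13 glial and melanocyte genes that SOX10 is known to bind were taken as a list as well, although SOX10 itself was at the counting floor. Of 11 tested, 3 were higher and 3 lower in iLuc, with a background of 41.1% and a median of 0.60. RET, a receptor kinase of enteric neural crest, was at 37.3 ± 11.3 CPM in iLuc and 4.33 ± 1.02 CPM in iEF (3.11 ± 0.27, adjusted p = 8.01e-09). PMP22, a myelin protein, was at 0.617 ± 0.0616 CPM in iLuc and 202 ± 91.2 CPM in iEF (-8.32 ± 0.31, adjusted p = 6.89e-14), and EDNRB, the endothelin receptor of crest cells, at 0.611 ± 0.182 CPM in iLuc and 28.5 ± 10.7 CPM in iEF (-5.45 ± 0.30, adjusted p = 8.75e-12). WT-EF, mut9, DAF, DAF-mut9 and Δ22 left PMP22 at 54.3, 102, 132, 172 and 165 CPM.

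Stem and progenitor genes linked to SOX2 numbered 8, of which 6 were tested and 2 were higher and 1 lower in iLuc, with a background of 41.1%. LIN28B, an RNA-binding protein of fetal cells, was at 58.6 ± 21.6 CPM in iLuc and 3.90 ± 1.94 CPM in iEF (3.91 ± 0.20, adjusted p = 3.90e-12), and PROM1, a stem cell surface protein, at 14.6 ± 4.82 CPM in iLuc and 1.80 ± 0.206 CPM in iEF (3.01 ± 0.30, adjusted p = 5.29e-08). NES, the progenitor filament nestin, was at 21.5 ± 2.17 CPM in iLuc and 203 ± 36.5 CPM in iEF (-3.25 ± 0.21, adjusted p = 8.73e-11). Members that rose and fell with the endogenous fusion were thus found in the same list. Of 5 neuronal genes linked to SOX4 and SOX11, 1 was higher and 1 lower, a share near that background. EZH2, a histone methyltransferase, was at 188 ± 23.4 CPM in iLuc and 108 ± 14.7 CPM in iEF (0.80 ± 0.12, adjusted p = 2.31e-05), and TUBB3, a neuronal tubulin that shares 21.3% of its exon bases with a gene on the same strand, at 3.81 ± 0.864 CPM in iLuc and 15.3 ± 5.64 CPM in iEF (-1.99 ± 0.23, adjusted p = 3.38e-07). LIN28B, COL9A3, EDNRB, SNAI2, EYA1, PMP22, TWIST1 and PROM1 also share exon bases with other genes, at most 7.06%. With WT-EF 3 of these 5 were higher and 0 lower, with a background of 28.3%.

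The patterns over the 21 libraries were compared as a description of log2 CPM, with no test, since libraries of a group share a condition and those of a set a batch. Among the family, SOX9 and SOX13 were the most alike (Pearson r = 0.867, n = 21), followed by SOX6 and SOX12 (0.846). SOX6 ran opposite to SOX13 (-0.837) and SOX5 (-0.814). SOX8 had no partner in the family above 0.604, its value with SOX4. Over all 14249 genes with a mean of at least 1 CPM, the 3 most alike were MSRB3-AS1, INPP1 and MYO1E (r = 0.982 to 0.978) for SOX9, TFAP2C, ARFGEF3 and MPP4 (r = 0.967 to 0.960) for SOX13, QPRT, PRAME and SV2A (r = 0.956 to 0.942) for SOX12 and CDH23, MYORG and ENSG00000241732 (r = 0.940 to 0.917) for SOX6. For SOX4 they were SERTM1, SAP18 and LINC01192 (r = 0.910 to 0.893), and for SOX8 CBFB, EIF2B2 and DACT2 (r = 0.902 to 0.877). The genes nearest to SOX2 were C1orf226, TENM2 and MFAP4 (r = 0.891 to 0.880), and those nearest to SOX11 were DISP1, MFHAS1 and ZSCAN9 (r = 0.804 to 0.789). SOX5 ran with ENSG00000255864, MICAL1 and SNX25 (r = 0.976 to 0.935). The annotation used here does not place ENSG00000255864 or ENSG00000241732.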

How the data were processed

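RNA from 21 A673 libraries was sequenced paired-end by the study with a ScriptSeq kit. The authors aligned reads to hg19 with STAR 2.5.1b, as named in the submitters' processing notes, and deposited whole-number counts per gene made with htseq-count (intersection-strict). Which annotation release and strand setting they used is not given in the sources used here, and 5 summary lines that name no gene were left out. The authors also deposited a table adjusted with ComBat for the replicate set, read here as signal values and used only in an alternative. Their table of fold changes, standard errors, adjusted p-values and means was not used.

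Library totals were 32.9 to 46.2 M counts. Counting error alone sets the floors given, since reads are not independent molecules. Groups came from sample titles. The 30549 genes whose mean count over the libraries was at least 1 were fitted in edgeR 4.0.16 (R 4.3.3) with TMM scaling, a quasi-likelihood model of group plus replicate set over all libraries, and Benjamini-Hochberg adjustment over all genes tested, two-sided. The standard error was the log2 fold change divided by the square root of F. The 95% intervals were built from this standard error with a normal approximation, so they are somewhat narrower than the edgeR test would give. CPM per kb used merged exon length from a GRCh37 annotation. Log2 CPM for correlations used a prior count of 2. The fit was tested on simulated data.

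The study treats the replicate number as a batch, so it is a term of the model. Same-numbered libraries of different groups deviated from their group means with a mean correlation of 0.080 over 63 pairs (-0.035 to 0.235), and differently numbered ones with -0.040 over 126 pairs. Since deviations within a group sum to 0, the second mean follows closely from the first and is no separate observation. Alternatives were DESeq2 1.42.0 size factors, no replicate block, no low-count filter, edgeR's own filter, the compared groups alone, DESeq2, limma 3.58.1 on the ComBat values, and leaving out each library in turn.

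The members and the gene lists were chosen with earlier results of these data known. All 10 members are named. From each list up to 2 genes each way are named, those with the largest difference between iLuc and iEF among called genes with a mean of at least 5 CPM over the libraries. SOX1, SOX17, COL2A1 and ACAN are named besides, the last pair as defining genes of cartilage. Promoter sequences are from RefSeq (GRCh38.p14), while gene coordinates are GRCh37.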

Additional observations from a re-analysis of the deposited data

How the results depend on the processing

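Over the 10 SOX genes and 15 comparisons no value changed direction with a call. Of 54 calls, 39 were made in every alternative in which the gene was tested and 15 were lost in at least 1, 6 of them only with 1 library left out. Replacing TMM by DESeq2 size factors changed no call. SOX10 could not be tested on the authors' adjusted values, where it has no row, and its 0 to 14 counts limit what can be said of it. The counts of called SOX genes were otherwise as below, and the cause of each change was not tested unless stated. The number of all genes called moves with the fit too. For mut9 against WT-EF it was 1878 in the main edgeR fit, 2637 with DESeq2 and 1776 with limma. The counts below are given without the share over all genes in the same fit. A change in them is therefore not read as particular to the SOX genes.

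The replicate set was a term of the model. Without this block, 8 calls were lost and none gained. The count fell from 2 to 1 for DAF-mut9 against iEF, from 5 to 3 for DAF against WT-EF and from 1 to 0 for DAF against Δ22, and no other count moved by over 1.5 times.

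With no low-count filter the counts were 4 for DAF-mut9 against iEF, 3 for Δ22 against iEF, 3 for mut9 against WT-EF, 3 for DAF against mut9, 8 for WT-EF against Δ22 and 5 for mut9 against Δ22. With the compared groups alone they were 2 for Δ22 against iEF, 3 for mut9 against WT-EF, 2 for DAF against mut9, 5 for DAF-mut9 against mut9, 8 for WT-EF against Δ22 and 4 for mut9 against Δ22. DESeq2 gave 2 for Δ22 against iEF, 2 for DAF against mut9 and 5 for mut9 against Δ22. Limma on the adjusted values gave 1 for mut9 against WT-EF, 2 for DAF against mut9 and 4 for mut9 against Δ22.

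With 1 library left out, so that fewer samples enter, the counts against iEF were 8 to 8 for iLuc, 7 to 8 for WT-EF, 6 to 8 for mut9, 2 to 3 for DAF, 1 to 2 for DAF-mut9 and 0 to 1 for Δ22. They were 5 to 7 for WT-EF against iLuc, 0 to 0 for mut9 against WT-EF, 3 to 4 for DAF against WT-EF, 1 to 2 for DAF against mut9 and 2 to 3 for DAF-mut9 against mut9. Against Δ22 they were 4 to 5 for WT-EF, 1 to 4 for mut9, 0 to 1 for DAF and 0 to 0 for DAF-mut9. Of the genes named from lists, EYA1 lost its call between iLuc and iEF in 5 alternatives and the others kept theirs in all.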
